A study of Homo sapiens with 12 samples.

Results

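The genes described here encode extracellular matrix proteins and the 2 sulfatases that act on matrix heparan sulfate, 47 listed genes in all of the 57820 genes counted. They were chosen by name from a list, matched to the deposited gene identifiers by symbol, and all 47 matched. A mean of at least 0.5 CPM (counts scaled to a library total of 1e6) in either RNA fraction was asked for, and all 47 genes met it, 35 of them in poly(A) RNA and 47 in chromatin RNA. The 12 genes under that level in poly(A) RNA were BGN, COL4A2, COL6A2, COL13A1, NID1, NID2, FBLN2, FBN1, FBN2, TNC, SPARC and SPOCK1.

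The extracellular matrix is a network of secreted proteins that surrounds cells. Fibrillar collagens form its fibres, small leucine-rich proteoglycans such as fibromodulin bind to those fibres, and laminins, type IV collagen, nidogens and perlecan form the basement membrane on which mammary epithelium rests. Syndecans and glypicans carry heparan sulfate chains at the cell surface, and the sulfatases SULF1 and SULF2 remove sulfate groups from those chains outside the cell, which alters the binding of growth factors. In the breast much of the interstitial matrix is made by fibroblasts, while luminal epithelial cells make basement membrane components and syndecans.

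RNA came from T47D-MTVL cells, a luminal breast cancer line (T47D) that carries 1 copy of a luciferase reporter under the MMTV promoter, grown in medium with charcoal-treated serum and not given the progestin R5020. There were 12 libraries in 6 groups of 2. Cells were transfected with siCtrl, a control siRNA, or with siPADI2, an siRNA against the PADI2 transcript, and their poly(A) RNA was sequenced. PADI2 is an enzyme that converts arginine residues to citrulline. Poly(A) RNA was also sequenced from cells transfected with RNA polymerase II (RNAP2) that carried an HA tag and resists alpha-amanitin. It was wild type (WT) or R1810A, in which an arginine is replaced by alanine, and the cells were treated for 12 hours with 6 µg/ml alpha-amanitin after 24 hours of expression. Alpha-amanitin inhibits the RNAP2 of the cells themselves, so both RNAP2 groups share the toxin and the transfected gene. Chromatin-associated RNA, the RNA that stays with the extracted nuclear pellet, was sequenced after siCtrl (replicates numbered 1 and 5) and siPADI2. Separate cultures within a group are not stated in the labels, so the p-values rest on the spread between the 2 libraries, which may be technical.

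Poly(A) libraries held 44.32 to 132.76 and chromatin libraries 2.72 to 7.04 counts in units of 1e6, which makes low chromatin values the least precise. PADI2 itself was at 24.0 and 22.6 CPM with siCtrl and 1.83 and 1.88 CPM with siPADI2 in poly(A) RNA, and at 34.9 and 32.5 against 8.52 and 14.2 CPM in chromatin RNA. In the RNAP2 experiment PADI2 stood at 48.9 and 50.7 CPM in WT and at 3.13 and 2.35 CPM in the libraries labelled R1810A, although the labels name no PADI2 siRNA there, so directions in that comparison belong to the libraries as labelled. The 8 luminal epithelial markers checked (EPCAM, KRT8, KRT18, KRT19, CDH1, ESR1, GATA3 and FOXA1) were detected in every poly(A) library. Of 8 fibroblast markers 7 were under 0.5 CPM after siCtrl, and COL1A2, COL3A1, PDGFRB and POSTN were at or near 0. All 4 endothelial markers matched were under 0.5 CPM.

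Levels were compared between genes per kilobase of exon. After siCtrl the highest poly(A) levels in CPM per kilobase were those of LAMB2, the laminin beta-2 chain (79.0 ± 3.80, SD, n = 2), the syndecan SDC4 (51.8 ± 1.30) and agrin, AGRN (41.5 ± 7.76). SDC4 and AGRN differed by little more than the spread of AGRN. The matricellular glycoprotein THBS1 followed at 21.6 ± 0.179, then SDC1 (12.8 ± 0.683), COL12A1 (12.3 ± 0.776), LAMA5 (11.5 ± 2.05) and LAMB1 (11.4 ± 0.268), and these last 4 did not differ by more than their spread from a neighbour in that order. Fibromodulin (FMOD) stood at 7.99 ± 0.283 and COL1A1 at 6.74 ± 0.956. Much lower were DCN at 0.0819 ± 0.00666, SPARC at 0.0573 ± 0.00328 and FBN1 at 0.0150 ± 0.00206 CPM per kilobase.

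In chromatin RNA the same genes spanned a far narrower range, from 1.05 to 18.2 CPM per kilobase with a median of 5.13. For scale, 2959 protein-coding genes of at least 1000 bases that averaged under 0.01 CPM in poly(A) RNA had a median of 2.33 and a 95th percentile of 7.54 CPM per kilobase in the same siCtrl chromatin libraries. Of the 47 matrix genes 13 were above that percentile. Of the 12 genes under the poly(A) level only FBLN2 and COL6A2 were above it, and the fibroblast receptor gene PDGFRB, with no count in the siCtrl poly(A) libraries, reached 55.1 ± 4.32 CPM in chromatin. The other 34 matrix genes lay within the chromatin range of genes with almost no poly(A) RNA.

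**Figure D1:**
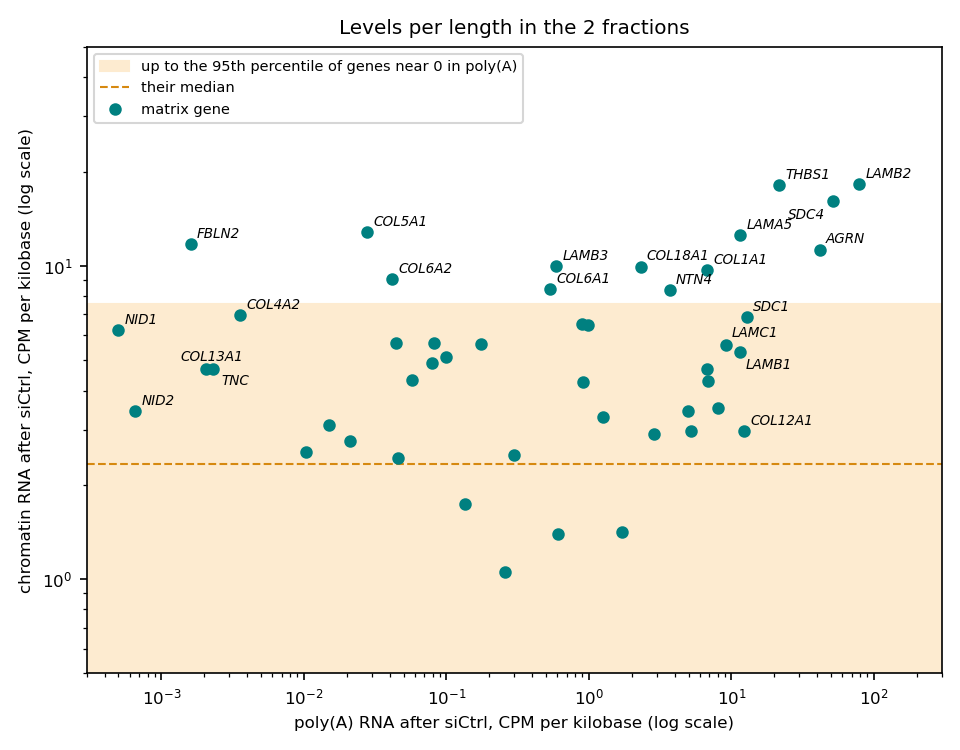
Levels after siCtrl in CPM per kilobase on log axes, poly(A) RNA across and chromatin RNA upward, 1 point per matrix gene (mean of 2 libraries). The band ends at 7.54, the 95th percentile of 2959 genes near 0 in poly(A) RNA, the dashed line is their median of 2.33, and NID1, which had no count in poly(A) RNA after siCtrl, is drawn at the left edge. Poly(A) levels spread over several powers of 10 while chromatin levels stay between 1.05 and 18.2.

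The first comparison asks which matrix transcripts changed in poly(A) RNA when PADI2 was depleted. Of 40 matrix genes tested, 13 rose, 10 fell and 17 did not pass (adjusted p below 0.05 in edgeR's quasi-likelihood test over all 18720 genes tested), where 28.8% of all genes tested were called higher and 27.9% lower. The median log2 fold change was 0.09 over the matrix genes and 0.01 over all genes tested. Changes of at least 2-fold were called for 6 higher and 6 lower genes, against 7.8% and 9.04% of all genes. The second comparison asks the same of the R1810A form of RNAP2. Of 41 matrix genes tested, 11 were higher in the libraries labelled R1810A, 14 were lower and 16 did not pass, where 22.6% and 24.3% of all 19202 genes tested were called, and 7 higher and 5 lower genes reached 2-fold, against 5.51% and 5.12% of all genes. The median was −0.17 over the matrix genes and −0.02 over all genes. Same-numbered WT and R1810A libraries deviated together over genes (correlation 0.439). With replicate number as a block in the fit, more than these 14 matrix genes were called lower in R1810A. Of the calls over all genes, 47.5% were higher with the block and 48.3% without it. The share of all genes called lower with the block is not given here. With total counts as library sizes in place of TMM (a scaling between libraries), all genes shifted by 0.18 on the log2 scale in the siPADI2 comparison, the share of its calls that were higher went from 50.8% to 67.0%, and the matrix genes split into 20 higher and 7 lower. Of all 18720 genes tested, 7398 were called higher and 3636 lower with that scaling. SULF2, COL4A5, COL16A1, LAMC1, FBN2 and GPC1, none of them called after siPADI2 with either scaling, then had the opposite sign.

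The 2 comparisons share no library. Of the 40 matrix genes tested in both, 7 were called higher in both (LUM, SULF1, COL5A1, COL5A2, COL4A1, LAMB3 and GPC6) and 5 lower in both (FMOD, COL12A1, FN1, THBS1 and SDC1), where 15.2% and 16.2% of all 18260 genes tested in both were so called. NTN4 was called higher after siPADI2 and lower in R1810A, and VCAN and SPOCK1 the reverse. Called in neither, in these fits without a replicate block, were 8 genes, COL1A1, COL4A6, COL6A1, COL6A2, COL7A1, COL16A1, AGRN and GPC1. Of the 8 luminal markers 1 was called higher and 5 lower after siPADI2, and 2 higher and 5 lower in R1810A. Over all genes tested the shares were 28.8% higher and 27.9% lower after siPADI2, and 22.6% and 24.3% in R1810A. EPCAM rose (0.62 and 0.36), CDH1 rose in R1810A (0.36), and KRT19 (−1.76 and −1.19), ESR1 (−1.60 and −1.17) and GATA3 (−0.74 and −0.90) fell in both. The summed level of the 8 markers ran from 9814 to 10970 CPM after siCtrl, 5965 to 6457 CPM after siPADI2, 9816 to 10320 CPM in WT and 6546 to 7353 CPM in R1810A, and their part in the matrix results was not tested. In these bulk samples fewer cells expressing a gene and less RNA per cell cannot be told apart.

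**Figure D2:**
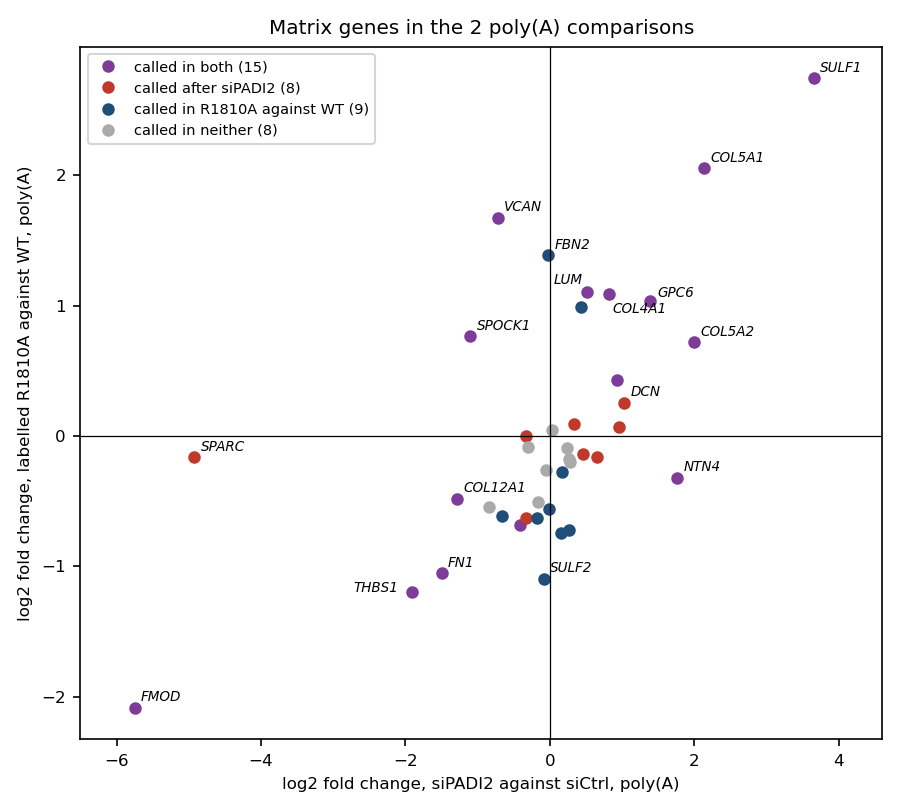
Log2 fold changes of the 40 matrix genes tested in both poly(A) comparisons, siPADI2 against siCtrl across and the libraries labelled R1810A against WT upward, coloured by where the gene was called. SULF1 and COL5A1 lie far up in both, FMOD, THBS1 and FN1 far down in both, and NTN4, VCAN and SPOCK1 lie in the quadrants of opposite sign.

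Among the small leucine-rich proteoglycans, which bind collagen fibrils and regulate their assembly, fibromodulin fell furthest. FMOD (ENSG00000122176.10, hg19 chromosome 1 from 203309756 to 203320617, minus strand) was at 27.1 and 25.8 CPM with siCtrl and 0.514 and 0.467 CPM with siPADI2. Its 3205 counts in the deeper siCtrl library stood against 64 in the deeper siPADI2 library, and the groups were far apart. The log2 fold change was −5.75 (SE 0.145, adjusted p = 1.47e-29), a 53.9-fold fall. In the RNAP2 experiment FMOD was at 12.8 and 13.7 CPM in WT and 2.99 and 3.26 CPM in R1810A, again without overlap, a change of −2.08 (SE 0.0944, adjusted p = 2.79e-09). The R1810A change was smaller than the siPADI2 change by 3.69 (SE 0.151, adjusted p = 3.66e-09 for the interaction in a joint fit of the 8 poly(A) libraries). Because FMOD fell furthest of the matrix genes in both comparisons, the 300 bases around its RefSeq start site are shown (GRCh38.p14, chr1:203351073-203351372, minus strand, 250 bases before to 50 after the start). Capitals mark GC boxes (GGGCGG, or CCGCCC on the other strand), CCAAT boxes (CCAAT or ATTGG) and TATA boxes (TATAAA or TTTATA), none of which overlap here. The window holds 2 GC boxes, 1 CCAAT box and 1 TATA box in its letters, and 45.0%, 34.6% and 11.5% of the 35116 RefSeq promoter windows of the same length hold at least 1 of each.
FMOD promoter: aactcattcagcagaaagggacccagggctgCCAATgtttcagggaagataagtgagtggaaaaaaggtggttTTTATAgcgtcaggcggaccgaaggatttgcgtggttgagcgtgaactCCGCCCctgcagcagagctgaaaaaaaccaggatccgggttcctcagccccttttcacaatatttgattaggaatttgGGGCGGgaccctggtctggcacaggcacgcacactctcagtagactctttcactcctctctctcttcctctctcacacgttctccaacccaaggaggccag

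The 3′ UTR of FMOD in GENCODE 29 is 1715 bases long and holds the 7-letter word ATCCACA at 2 places, bases 949 and 1527 of the UTR. This word and TACCATG had been picked out in an earlier scan of these data, so their link to a fall is no independent evidence. The 27 bases around each place are given because FMOD is the only matrix gene with 2 of these words, with the word in capitals.
FMOD UTR site at base 949: ctgggtttttATCCACAaaggtagcgg
FMOD UTR site at base 1527: cagacctggaATCCACAaaagccaaac
Of the 47 matrix genes 5 hold either word: FMOD, FN1 (1 ATCCACA), DCN, COL5A1 and SPOCK1 (1 TACCATG each). Their poly(A) changes after siPADI2 point both ways, with FMOD, FN1 and SPOCK1 lower and DCN and COL5A1 higher. Over all genes tested with a 3′ UTR, those with ATCCACA (9.15%) had a median log2 change of −0.13 after siPADI2, against 0.03 for genes with neither word, and −0.14 against 0.03 in R1810A. In chromatin the order was the opposite, with −0.03 for genes with ATCCACA and −0.18 for genes with neither word. Over all genes the chromatin change followed GC content (Spearman correlation −0.644). Genes with and without the word were not compared at like GC content, so its part in this order was not tested.

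The other small proteoglycans went the other way or were barely detected. Lumican (LUM) was at 1.78 and 1.87 CPM with siCtrl and 2.64 and 2.60 CPM with siPADI2, and at 2.09 and 2.13 CPM in WT and 4.67 and 4.40 CPM in R1810A. Both rises cleared the spread of their libraries (log2 0.52, adjusted p = 0.00815, and 1.10, adjusted p = 6.12e-06). Decorin (DCN) rose after siPADI2 from 0.624 and 0.700 to 1.58 and 1.18 CPM (log2 1.03, adjusted p = 0.000211), while in the RNAP2 experiment its 3.33 and 3.44 CPM in WT and 3.90 and 4.18 CPM in R1810A gave 0.25 (adjusted p = 0.0817). Biglycan (BGN) had 23 and 30 counts in WT and 8 and 7 in R1810A, or 0.184 and 0.233 against 0.0642 and 0.0538 CPM. That fall of 1.81 on the log2 scale (adjusted p = 0.00325) was not called with DESeq2 (adjusted p = 0.0712) or without WT replicate 2 (0.0533).

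**Figure D3:**
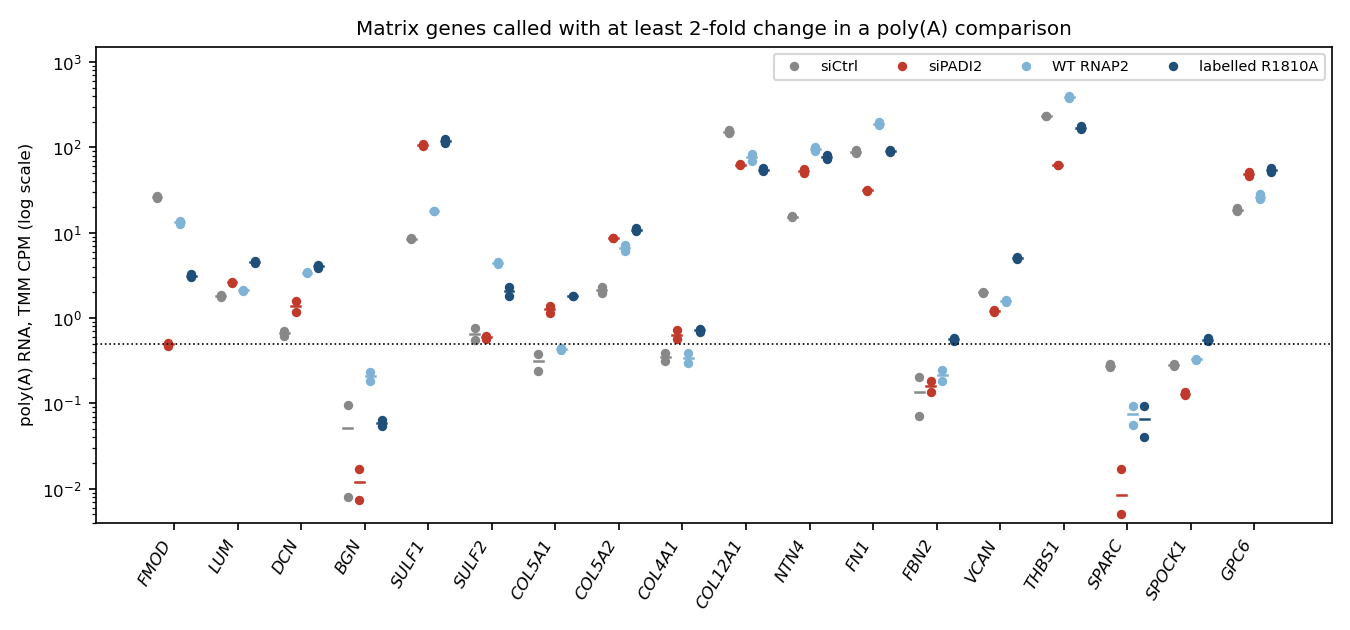
Poly(A) level in each of the 8 libraries (TMM CPM, log axis) for the 18 matrix genes called with a change of at least 2-fold in either poly(A) comparison; points are libraries, short bars are means of 2 and the dotted line is 0.5 CPM. FMOD drops from above 25 CPM to about the dotted line after siPADI2, SULF1 rises above 100 CPM in both treated groups, and the siPADI2 library of SPARC with no count is drawn at the lower edge.

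SULF1, which trims heparan sulfate outside the cell, showed the largest rise of any matrix gene in both poly(A) comparisons. SULF1 (ENSG00000137573.9) was at 8.71 and 8.36 CPM with siCtrl and 110 and 104 CPM with siPADI2. In the RNAP2 experiment it was at 17.7 and 17.9 CPM in WT and 112 and 127 CPM in R1810A. The treated levels were thus alike in the 2 experiments and the control levels differed, although the experiments were scaled apart and this was not tested. The rise was 12.6-fold after siPADI2 (log2 3.66, SE 0.0971, adjusted p = 8.16e-29) and 6.69-fold in R1810A (log2 2.74, SE 0.0709, adjusted p = 5.62e-11), and the R1810A effect was smaller by 0.89 (adjusted p = 1.98e-05). Its paralogue SULF2 had 0.768 and 0.547 CPM with siCtrl and 0.615 and 0.570 CPM with siPADI2, overlapping levels (log2 −0.08, 95% interval −0.63 to 0.47). In R1810A SULF2 fell, from 4.52 and 4.33 CPM to 1.84 and 2.30 CPM (log2 −1.10, adjusted p = 1.99e-05). The 2 sulfatases therefore moved in opposite directions there.

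The proteins that carry heparan sulfate changed gene by gene. After siPADI2, 3 of the 6 listed syndecans and glypicans rose, 1 fell and 2 did not pass. In R1810A 1 rose and 2 fell. Of all genes, 28.8% were called higher and 27.9% lower after siPADI2, and 22.6% and 24.3% in R1810A. The syndecan SDC3, counted with the receptors instead, fell after siPADI2 from 20.2 ± 1.37 to 10.2 ± 0.463 CPM (log2 −0.99). Glypican-6 (GPC6) was at 17.8 and 19.3 CPM with siCtrl and 51.4 and 45.6 CPM with siPADI2, and at 25.0 and 28.1 CPM in WT and 51.7 and 56.9 CPM in R1810A. The groups did not overlap in either experiment (log2 1.38, adjusted p = 1.82e-15, and 1.03, adjusted p = 3.99e-07). Syndecan-4 (SDC4) rose after siPADI2 (0.96) and gave 0.07 in R1810A, an effect smaller by 0.87 in the joint fit (adjusted p = 1.19e-05). Syndecan-1, the epithelial syndecan, fell in both (SDC1, −0.41 and −0.68). SDC2 fell in R1810A (−0.75) and gave 0.15 after siPADI2, a difference of −0.87 (adjusted p = 1.53e-05), GPC4 rose after siPADI2 (0.34, not called without siCtrl replicate 2 or siPADI2 replicate 2) and GPC1 passed in neither.

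Of 20 genes that build, sulfate or cleave heparan sulfate and related chains, 18 were tested in poly(A) RNA. Of these 6 rose and 4 fell after siPADI2, and 3 rose and 7 fell in R1810A, with medians of 0.00 and −0.16. The shares of all genes called higher and lower were 28.8% and 27.9% after siPADI2 and 22.6% and 24.3% in R1810A, so the rises after siPADI2 are near the share over all genes. The xylosyltransferase XYLT1, which starts the chains, fell from 20.3 ± 1.80 to 3.58 ± 0.354 CPM after siPADI2 (log2 −2.50) and from 31.0 ± 3.34 to 11.5 ± 0.490 CPM in R1810A (−1.43). NDST1, an N-deacetylase and N-sulfotransferase that begins sulfation, fell from 819 ± 71.5 to 270 ± 7.59 CPM (−1.60) and from 638 ± 37.6 to 331 ± 21.0 CPM (−0.95). These were the largest falls of the list, in the same libraries in which SULF1 rose, and the chains themselves were not measured. The polymerase EXT2 fell after siPADI2 (−0.57) and the epimerase GLCE in R1810A (−0.35). The largest rises after siPADI2 were those of UST (1.16), which sulfates chondroitin and dermatan sulfate, EXTL2 (0.62) and B3GAT3 (0.48).

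Among fibrillar collagens the type V chains rose and COL1A1 did not pass. COL5A1, which with COL5A2 nucleates collagen fibrils, was at 0.384 and 0.241 CPM with siCtrl and 1.38 and 1.14 CPM with siPADI2, and at 0.449 and 0.427 CPM in WT and 1.82 and 1.81 CPM in R1810A. Both treated groups stood apart from their controls, with log2 changes of 2.14 (SE 0.276, adjusted p = 1.69e-08) and 2.05 (SE 0.178, adjusted p = 8.82e-07) that differed by −0.05 (95% interval −0.75 to 0.64). COL5A2 went from 1.97 and 2.28 to 8.61 and 8.70 CPM after siPADI2 (log2 2.00, adjusted p = 1.54e-15) and from 7.10 and 6.13 to 11.3 and 10.5 CPM in R1810A (log2 0.72, adjusted p = 3.85e-05). COL1A1, the abundant fibrillar collagen, was at 72.8 and 59.5 CPM with siCtrl and 67.3 and 67.8 CPM with siPADI2 (log2 0.04, 95% interval −0.15 to 0.22), and its R1810A change was 0.05 (−0.71 to 0.81).

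Type XII collagen, which decorates fibrils, fell. COL12A1 was at 160 and 146 CPM with siCtrl and 62.4 and 63.4 CPM with siPADI2 (log2 −1.28, SE 0.0837, adjusted p = 2.54e-16), and at 69.7 and 84.0 CPM in WT and 52.8 and 57.3 CPM in R1810A (−0.48, adjusted p = 0.00717). The second fall was not called without R1810A replicate 1 or without R1810A replicate 2. COL18A1, whose cleavage gives endostatin, rose after siPADI2 (log2 0.46, adjusted p = 0.00101, not called without siCtrl replicate 2). COL6A1 and COL6A2 (type VI), COL7A1 (the anchoring fibril collagen) and COL16A1 passed in neither comparison, and COL13A1, with 0 to 2 counts per poly(A) library, was not tested. COL7A1 was uneven within groups, at 34.9 and 13.7 CPM in WT and 32.3 and 10.7 CPM in R1810A. The library numbered 1 was the higher in both groups and the groups overlapped (log2 −0.18, 95% interval −4.02 to 3.67). Between same-numbered libraries COL7A1 was lower in R1810A each time, and that interval takes no account of replicate number.

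Type IV collagen chains, the network of the basement membrane, are encoded by gene pairs that start close together in opposite directions. COL4A1 was at 0.312 and 0.386 CPM with siCtrl and 0.716 and 0.562 CPM with siPADI2, and at 0.385 and 0.295 CPM in WT and 0.754 and 0.691 CPM in R1810A. It rose in both (log2 0.81, adjusted p = 0.0171, and 1.09, adjusted p = 0.00206), the first not called with DESeq2 or when siCtrl replicate 1, siCtrl replicate 2 or siPADI2 replicate 1 was left out. Its partner COL4A2 had 1 to 7 counts in every poly(A) library and was not tested. On the X chromosome COL4A5 was abundant, at 43.7 and 42.3 CPM with siCtrl and 37.8 and 38.5 CPM with siPADI2 (log2 −0.17, adjusted p = 0.0950), and it fell in R1810A from 89.2 and 89.2 to 58.5 and 56.8 CPM (log2 −0.63, adjusted p = 1.22e-06). COL4A6, its divergent neighbour, passed in neither (0.28 and −0.20). Per kilobase the partners were far apart after siCtrl, with COL4A5 at 4.92 ± 0.109 and COL4A6 at 0.257 ± 0.00120, and COL4A1 at 0.0443 ± 0.00667 and COL4A2 at 0.00356 ± 0.000734 CPM per kilobase. The RefSeq windows are shown because members of a pair with such unlike levels share promoter sequence: the COL4A1 and COL4A2 windows share 226 bases with start sites 127 bases apart, and those of COL4A5 and COL4A6 share 121 bases with starts 380 bases apart, while the other COL4A6 start lies 1416 bases from that of COL4A5 and its window shares 0. The first is chr13:110307108-110307407 on the minus strand and the second chrX:108439588-108439887 on the plus strand (GRCh38.p14), with the same motifs in capitals.
COL4A1 promoter: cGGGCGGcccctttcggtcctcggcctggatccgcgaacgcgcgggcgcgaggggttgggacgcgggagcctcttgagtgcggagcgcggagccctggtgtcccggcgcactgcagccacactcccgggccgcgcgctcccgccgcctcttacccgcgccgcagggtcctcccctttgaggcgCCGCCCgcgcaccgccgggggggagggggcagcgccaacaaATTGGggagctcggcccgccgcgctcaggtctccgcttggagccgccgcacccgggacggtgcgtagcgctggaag
COL4A5 promoter: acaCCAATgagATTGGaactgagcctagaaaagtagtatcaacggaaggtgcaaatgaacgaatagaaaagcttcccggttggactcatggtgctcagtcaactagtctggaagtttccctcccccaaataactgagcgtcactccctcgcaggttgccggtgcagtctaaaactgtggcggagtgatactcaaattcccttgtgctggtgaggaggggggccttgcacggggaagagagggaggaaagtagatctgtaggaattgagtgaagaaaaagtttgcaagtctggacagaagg
In letters the COL4A1 window has 2 GC boxes and 1 CCAAT box and is 76.7% G and C, and the COL4A5 window has 0 GC boxes and 2 CCAAT boxes and is 49.3% G and C; neither has a TATA box.

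Of 21 genes for collagen folding, processing and crosslinking, 18 were tested after siPADI2, of which 5 rose and 9 fell, and 20 in R1810A, of which 4 rose and 9 fell, against 28.8% higher and 27.9% lower of all genes after siPADI2 and 22.6% and 24.3% in R1810A. The crosslinking enzyme lysyl oxidase (LOX) rose from 1.84 ± 0.291 to 6.98 ± 0.0770 CPM after siPADI2 (log2 1.88) and from 0.840 ± 0.0140 to 3.80 ± 0.168 CPM in R1810A (2.18). The collagen chaperone SERPINH1 fell in both, from 213 ± 19.1 to 117 ± 12.2 CPM (−0.87) and from 223 ± 11.3 to 118 ± 9.44 CPM (−0.92). The hydroxylases P4HA1 (−0.98) and PLOD2 (−0.76) fell after siPADI2, and LOXL2 (1.86) rose and P3H2 (−1.69) fell in R1810A.

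Laminins, the heterotrimers of the basement membrane, changed by less than 2-fold in both poly(A) comparisons. After siPADI2 LAMB1 (0.66) and LAMB3 (0.94) rose, LAMA5 (−0.33) and LAMB2 (−0.33) fell, and LAMA3 and LAMC1 did not pass. In R1810A LAMB3 rose (0.43), LAMA3 (−0.28) and LAMC1 (−0.56) fell, and LAMA5 (−0.63, adjusted p = 0.0818), LAMB1 and LAMB2 did not pass. The falls of LAMA5 and LAMB2 after siPADI2 were not called with total counts as library sizes, that of LAMA5 also not without siCtrl replicate 1, and the LAMB3 rise in R1810A not without R1810A replicate 2. Netrin-4 (NTN4), a laminin-related protein that binds laminin networks, changed in opposite directions in the 2 experiments. It rose from 15.1 and 15.6 to 49.5 and 55.1 CPM after siPADI2 (log2 1.77, SE 0.0966, adjusted p = 1.14e-18). In WT it already stood at 91.6 and 100 CPM, and in R1810A it was lower, at 72.9 and 80.7 CPM (log2 −0.32, SE 0.0688, adjusted p = 0.00211). The 2 effects differed by −2.06 (SE 0.110, adjusted p = 3.38e-08).

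Of the proteins that link basement membrane networks, perlecan (HSPG2) fell in R1810A from 32.7 and 40.1 to 21.0 and 23.2 CPM (log2 −0.72, adjusted p = 0.00274) and gave 0.26 (adjusted p = 0.0594) after siPADI2. The R1810A fall was not called without R1810A replicate 1. AGRN passed in neither comparison, and the nidogens NID1 and NID2 had 0 to 4 counts per poly(A) library. All 10 receptors for laminin and collagen were tested; 3 rose and 5 fell after siPADI2 (28.8% and 27.9% of all genes), and 3 rose and 6 fell in R1810A (22.6% and 24.3%). Dystroglycan (DAG1), which binds laminin and agrin, fell from 653 ± 57.4 to 175 ± 0.0436 CPM after siPADI2 (log2 −1.90) and from 958 ± 53.8 to 405 ± 24.3 CPM in R1810A (−1.24). The laminin receptor BCAM also fell (−0.84 and −0.68), while the integrin chains ITGB1 (0.34 and 0.44) and ITGA2 (0.27 and 0.77) rose in both.

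Fibronectin, the adhesive glycoprotein that integrins bind, fell in both experiments. FN1 was at 92.3 and 86.4 CPM with siCtrl and 32.1 and 31.1 CPM with siPADI2 (log2 −1.50, SE 0.0859, adjusted p = 4.59e-18), and at 181 and 196 CPM in WT and 88.9 and 92.9 CPM in R1810A (−1.05, SE 0.0640, adjusted p = 3.57e-08). The R1810A fall was the smaller by 0.47 (adjusted p = 0.00229). The hyaluronan-binding proteoglycan versican (VCAN) went in opposite directions, from 2.04 and 1.96 to 1.18 and 1.23 CPM after siPADI2 (−0.72, adjusted p = 0.00114) and from 1.62 and 1.56 to 4.96 and 5.18 CPM in R1810A (1.67, adjusted p = 1.66e-07). That difference of 2.42 was itself called (SE 0.191, adjusted p = 8.46e-07). The fibrillins, which form microfibrils, were low: FBN2 had 0.184 and 0.248 CPM in WT and 0.545 and 0.592 CPM in R1810A (log2 1.39, adjusted p = 0.000866), and FBN1 gave 0.99 there (adjusted p = 0.00854, not called with DESeq2, without WT replicate 2 or without R1810A replicate 2). After siPADI2 FBN1 and FBN2 did not pass. FBLN1 fell in R1810A (−0.62, not called with DESeq2, without WT replicate 2 or without R1810A replicate 1) and FBLN2 was not tested, with 0 to 3 counts per poly(A) library.

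The matricellular genes encode secreted proteins that act on cells rather than build fibres. THBS1, an antiangiogenic protein that also activates latent TGF-beta, was at 233 and 236 CPM with siCtrl and 62.1 and 62.7 CPM with siPADI2. In the RNAP2 experiment it was at 378 and 399 CPM in WT and 163 and 177 CPM in R1810A. It fell without overlap in both (log2 −1.91, SE 0.0841, adjusted p = 1.33e-21, and −1.19, SE 0.0700, adjusted p = 2.67e-08), and by 0.74 less in R1810A (adjusted p = 4.71e-05). SPARC, a collagen-binding glycoprotein, had 12 and 33 counts after siCtrl and 2 and 0 after siPADI2. Summed over libraries the ratio of its rates was 0.0328 (exact 95% interval 0.00385 to 0.126, counting error only), a fall called with adjusted p = 1.73e-07, while in WT and R1810A it had 7 and 12 against 5 and 12 counts. Its fitted log2 change, −4.92, was −7.79 without siPADI2 replicate 1 and −3.91 without siPADI2 replicate 2, and it was not tested without siCtrl replicate 2. SPOCK1, also called testican-1, had 0.288 and 0.274 CPM with siCtrl and 0.135 and 0.124 CPM with siPADI2, and 0.329 and 0.326 CPM in WT and 0.537 and 0.576 CPM in R1810A. Its calls (−1.10, adjusted p = 0.0194, and 0.77, adjusted p = 0.0182) were lost when any 1 of the 4 libraries of either comparison was left out and with DESeq2, and the first also with total counts as library sizes. TNC, with 0 to 11 counts per poly(A) library, was not tested.

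Of 25 matrix proteases and their inhibitors 15 were tested in each poly(A) comparison; 5 rose and 4 fell after siPADI2, near the 28.8% and 27.9% of all genes, and 7 rose and 2 fell in R1810A (22.6% and 24.3% of all genes). The protease ADAMTS1 rose in both, from 0.249 ± 0.0124 to 1.28 ± 0.0680 CPM (log2 2.34) and from 0.454 ± 0.0942 to 2.06 ± 0.0570 CPM (2.18). The inhibitor TIMP3 fell in both, from 0.461 ± 0.0757 to 0.0859 ± 0.00243 CPM (−2.45) and from 6.82 ± 0.136 to 0.598 ± 0.176 CPM (−3.51). TIMP1 rose in R1810A from 4.69 ± 0.130 to 25.8 ± 0.615 CPM (2.46). MMP11 rose after siPADI2 (1.10), and MMP9, under 0.5 CPM in every poly(A) group, in both (1.09 and 1.08).

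In the joint fit of the 8 poly(A) libraries the R1810A effect was above the siPADI2 effect for 9 of 41 matrix genes and below it for 14, where 14.3% and 11.8% of all 19884 genes tested were called. Above it by at least 2-fold (3.99% of all genes) were FMOD, VCAN, SPARC (4.80, adjusted p = 0.00348, fitted on few counts) and SPOCK1 (1.89, adjusted p = 0.00323). Below it by at least 2-fold (2.36%) were NTN4 and COL5A2 (−1.26, adjusted p = 5.11e-05), the latter a rise in both. COL12A1 (0.82), FN1 and THBS1 were falls in both that were smaller in R1810A. With total counts as library sizes 32.0% of all calls for this difference were higher, against 54.9% with TMM, all genes shifted by −0.15, and the matrix genes split into 7 and 17.

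The third comparison asks whether the changes after siPADI2 were present in chromatin-associated RNA. All 47 matrix genes were tested there; 4 were called higher and 22 lower, where 12.2% and 20.1% of all 33879 genes tested were called, and the median log2 fold change was −0.58 against 0.03 over all genes. At least 2-fold lower were 15 matrix genes, against 13.8% of all genes, and no matrix gene was called at least 2-fold higher, against 7.03%. Total counts as library sizes shifted all genes by 0.11. The genes called lower had a GC content of 51.7% to 67.5%. Of 20 matrix genes with a GC content of at least 55%, 19 were called lower, the exception being LAMB2 (−0.33), and of 9 matrix genes under a GC content of 45% none was called lower and 2 were called higher. Across the 47 genes the chromatin log2 fold change and GC content had a Pearson correlation of −0.857 and a Spearman correlation of −0.856, a description over genes that share the same 4 libraries.

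A relation in the same direction ran through all genes. The median chromatin log2 change was 0.47 in the first of 10 equal bins of genes by GC content and −1.05 in the last, where 0.621% and 65.9% were called lower. In the bins that began at a GC content of 53.7% and 56.9%, 39.5% and 59.4% of all genes were called lower. These shares are below the 19 of 20 matrix genes with a GC content of at least 55%. Among the genes near 0 in poly(A) RNA the medians were 0.60 and −1.25. With a correction for GC content (chosen after seeing the data) the matrix genes called went to 2 higher, COL4A5 (0.72) and LAMB2 (0.56), and 10 lower, COL5A1 (−1.05), COL4A2 (−0.74), COL6A2 (−0.68), COL18A1 (−0.67), LAMB3 (−0.95), NID1 (−0.67), HSPG2 (−0.83), FBLN1 (−0.70), FBLN2 (−1.52) and THBS1 (−0.70). Of all 33879 genes tested, 7.63% were called higher and 8.38% lower with this correction. The siPADI2 chromatin libraries were also the shallowest, at 2.80 and 2.72 against 7.04 and 6.67 counts in units of 1e6, and the part of depth or base composition in the chromatin results was not tested beyond these values.

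**Figure D4:**
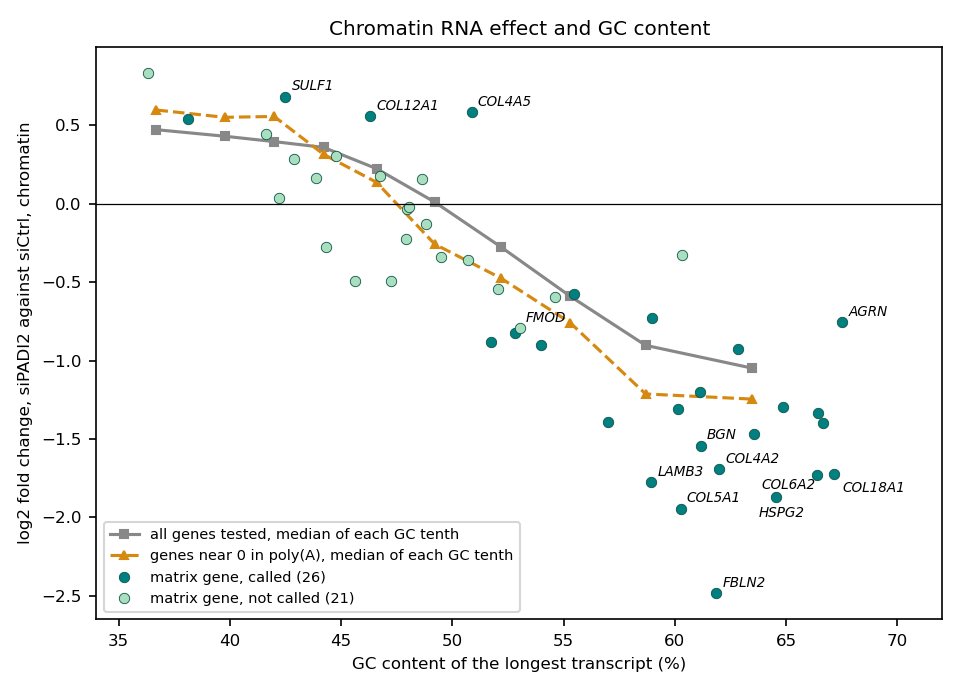
Chromatin log2 fold change after siPADI2 (upward) against the GC content of each gene's longest transcript in percent, for the 47 matrix genes, with lines through the medians of 10 bins by GC content of all tested genes and of the genes near 0 in poly(A) RNA. Both lines fall from above 0 to about −1, most matrix genes lie near or below them, and FBLN2 at −2.48 lies furthest below.

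Of the chromatin falls that were also called with the GC correction, FBLN2, fibulin-2 of elastic and basement membrane matrix, was the largest, from 49.3 and 67.7 CPM after siCtrl to 11.4 and 9.57 CPM after siPADI2 (log2 −2.48, SE 0.238, adjusted p = 6.49e-22). COL5A1 went from 139 and 148 to 39.8 and 34.7 CPM (−1.94, adjusted p = 8.54e-15) and HSPG2 from 101 and 130 to 26.6 and 36.9 CPM (−1.87, adjusted p = 2.57e-14). In all 3 the siCtrl libraries were at least 2 times the siPADI2 libraries. LAMB3 went from 43.0 and 50.6 to 13.5 and 13.8 CPM (−1.78), COL6A2 from 42.2 and 55.4 to 17.4 and 12.1 CPM (−1.73) and COL18A1 from 74.9 and 94.7 to 30.5 and 20.9 CPM (−1.72). COL4A2 went from 55.1 and 54.9 to 20.9 and 13.1 CPM (−1.69) and FBLN1 from 31.0 and 38.7 to 13.1 and 13.5 CPM (−1.39). None of these groups overlapped, which is likely for genes chosen by a called fall of at least 2-fold and is no further evidence.

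The other 7 genes at least 2-fold lower were not called after the GC correction. BGN was at 6.00 and 7.51 against 2.48 and 2.13 CPM (log2 −1.54), COL6A1 at 38.8 and 51.5 against 17.8 and 14.9 CPM (−1.47) and GPC1 at 25.8 and 30.3 against 11.7 and 9.57 CPM (−1.40). LAMA5 was at 166 and 203 against 82.7 and 63.8 CPM (−1.33) and SDC1 at 23.2 and 26.1 against 11.0 and 8.86 CPM (−1.31). COL7A1 was at 67.8 and 75.2 against 27.0 and 31.2 CPM (−1.30) and COL1A1 at 91.6 and 99.1 against 36.9 and 46.1 CPM (−1.20). Their groups did not overlap before that correction, which again is likely from how they were chosen. After the correction their log2 changes ran from −0.61 for BGN to −0.26 for COL1A1. The smaller falls called before it were those of SULF2 (−0.82), COL4A1 (−0.58), COL13A1 (−0.73), COL16A1 (−0.93), NID1 (−0.88, also called after it), AGRN (−0.75) and TNC (−0.90), and with the correction COL13A1 (0.10), COL16A1 (0.06) and AGRN (0.30) had the opposite sign. Leaving out siCtrl replicate 5 lost the calls of BGN, SULF2, COL4A1, COL13A1 and AGRN, leaving out siPADI2 replicate 2 those of BGN, COL4A1, COL13A1 and AGRN, and leaving out siPADI2 replicate 1 those of COL4A1 and TNC.

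The 4 genes higher in chromatin were SULF1, DCN, COL4A5 and COL12A1. SULF1 was at 40.0 and 40.2 CPM with siCtrl and 65.7 and 63.1 CPM with siPADI2 (log2 0.68, SE 0.201, adjusted p = 0.00435), against 3.66 in poly(A) RNA, and its groups did not overlap. This rise was not called without siCtrl replicate 5 or with the GC correction (0.38, adjusted p = 0.117). DCN (0.54), COL4A5 (0.58) and COL12A1 (0.56) lost their calls without siCtrl replicate 5 and with DESeq2, and each of them also without at least 1 other library. FMOD, the largest poly(A) fall, was at 10.2 and 13.1 CPM with siCtrl and 7.10 and 6.38 CPM with siPADI2, with 63 and 89 against 20 and 18 counts. It did not pass in chromatin (log2 −0.79, 95% interval −1.45 to −0.13, adjusted p = 0.0558). Also not passing in chromatin were THBS1 (−0.49, adjusted p = 0.103), LAMB2, LUM, COL5A2, COL4A6, LAMA3, LAMB1, LAMC1, NTN4, NID2, FN1, FBN1, FBN2, VCAN, SPARC, SPOCK1, SDC2, SDC4, GPC4 and GPC6, with log2 changes from −0.60 (COL4A6) to 0.83 (LUM).

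Whether the chromatin and poly(A) effects of siPADI2 differed was tested in a joint fit of the 8 siRNA libraries. The chromatin effect was above the poly(A) effect for 5 of 47 matrix genes and below it for 17, where 1.71% and 6.34% of all 44615 genes tested were called, and the median difference was −1.07 against −0.16 over all genes. FMOD fell less in chromatin, by 4.75 (SE 0.490, adjusted p = 1.06e-18), as did FN1 (1.33), THBS1 (1.22) and SPARC (4.15, fitted on few poly(A) counts), and COL12A1 also lay above (1.63). SULF1 rose less in chromatin, by 3.18 (SE 0.383, adjusted p = 1.55e-13), and NTN4 (−2.19) and COL5A2 (−2.22) showed in chromatin no rise that passed. With the GC correction 8 matrix genes lay above and 12 below. Leaving out siPADI2 poly(A) replicate 1 gave 3 above and 10 below, and leaving out siPADI2 poly(A) replicate 2 gave 3 and 11. Total counts as library sizes shifted all genes by 0.11 here. In the siCtrl chromatin libraries THBS1 (18.1) and NTN4 (8.375 CPM per kilobase) exceeded 7.54, the 95th percentile of genes near 0 in poly(A) RNA. FMOD (3.52), FN1 (2.97), SPARC (4.34), COL12A1 (2.975), SULF1 (4.27) and COL5A2 (2.49) did not. Their chromatin effects were thus measured within the range of genes with almost no poly(A) RNA.

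The counts of the related lists in chromatin stand against 12.2% of all genes higher and 20.1% lower, or 7.63% and 8.38% with the GC correction. Of 20 heparan sulfate genes 1 was higher in chromatin and 6 lower, and 0 and 2 with the correction, NDST1 (−1.40, corrected −0.75) and XYLT1 (−0.82, corrected −0.60). Of the 21 collagen maturation genes 2 were higher and 7 lower, and 3 and 2 with the correction; LOX was higher (0.73) and not called with it (0.40). Of 25 protease and inhibitor genes 2 were higher and 8 lower, and 0 and 1 with the correction, MMP24 (−2.24, corrected −1.34), while MMP9 (−1.68) was not called with it. Of the 10 receptors 1 was higher, ITGA2 (0.88), and 4 lower, among them DAG1 (−0.91) and SDC3 (−1.54). With the correction ITGA2 and BCAM (0.53) were higher and SDC3 lower; XYLT1 and BCAM are named here after their values were seen, to complete these counts. Of 8 fibroblast markers 1 was higher in chromatin, FAP (0.72), 2 were lower, PDGFRB (−1.85) and THY1 (−0.90), and 5 did not pass. Of 4 endothelial markers tested VWF (−1.75) and CDH5 (−1.05) were lower and 2 did not pass.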

How the data were processed

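Poly(A) and chromatin-associated RNA of T47D-MTVL cells were measured in 12 libraries. The submitters' processing notes name Trimmomatic, STAR and featureCounts. The authors deposited raw fragment counts on hg19, made with featureCounts 1.5.1 (poly(A)) or 1.4.6-p2 (chromatin), strand option 2 and GENCODE 19 genes, per the file headers. Multi-mapping reads and reads within introns do not enter them, and the exonic lengths of the same tables gave the CPM per kilobase.

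Each comparison used only its 4 libraries in edgeR 4.0.16 (R 4.3.3): the filterByExpr filter, TMM, robust quasi-likelihood test, Benjamini-Hochberg adjustment over all genes tested and a threshold of 0.05. Differences between effects were contrasts in joint fits of 8 libraries. The pipeline was tested on simulated counts. Symbols, GC content and 3′ UTRs came from GENCODE 29 by gene identifier (51996 genes with a symbol, 52337 with GC content) and promoter windows from RefSeq, which held 38 of the 47 genes. The genes and lists were chosen with earlier results of these data known. Every listed gene is accounted for; those called with at least 2-fold change are given by library, and of each related list at most the 3 largest calls per direction. Groups without overlap are likely for genes chosen by a call, so they are described and add no evidence to it. Alternatives were DESeq2 1.42.0, DESeq2 size factors, total counts as library sizes, no filter, a level of 1 CPM, joint fits, a replicate block, each library left out and, added after seeing the data, a GC correction (loess of each library's deviation on GC content).

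The 2 libraries of every group differed by more than sampling noise (chi-square per degree of freedom 3.55 to 91.7), so none was counted as a duplicate.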

Additional observations from a re-analysis of the deposited data

Results flagged for a closer look

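For 5 matrix genes the siPADI2 effect had opposite called directions in the 2 RNA fractions, and the difference between the effects was itself called in the joint fit of 8 libraries. Of all genes tested, 28.8% were called higher and 27.9% lower in poly(A) RNA, and 12.2% and 20.1% in chromatin. The share of all genes called in opposite directions is not given here, so these 5 cannot be set against all genes. COL5A1 rose in poly(A) RNA (log2 2.14) and was lower in chromatin (−1.94), a difference of −4.22 (adjusted p = 1.06e-18). LAMB3 (0.94 and −1.78) differed by −2.90 (adjusted p = 5.52e-10), COL18A1 (0.46 and −1.72) by −2.40 (adjusted p = 8.04e-08) and COL4A1 (0.81 and −0.58) by −1.53 (adjusted p = 0.00951). COL12A1 went the other way, lower in poly(A) RNA (−1.28) and higher in chromatin (0.56), a difference of 1.63 (adjusted p = 0.00076). With the GC correction the differences were −3.32, −2.03, −1.23, −0.96 and 1.75 in that order, all 5 called. The opposite calls themselves were less stable: the chromatin calls of COL4A1 and COL12A1 were lost with DESeq2, with the GC correction and in the joint fit of the siRNA libraries, and the poly(A) call of COL4A1 was lost with DESeq2 and without siCtrl replicate 1, siCtrl replicate 2 or siPADI2 replicate 1. The poly(A) call of COL18A1 was lost without siCtrl replicate 2, and the chromatin calls of COL4A1 and COL12A1 without siCtrl replicate 5 or siPADI2 replicate 1. The 4 genes lower in chromatin have a GC content of 55.4% to 67.2%, and COL12A1 of 46.3%. In siCtrl chromatin COL4A1 (5.67) and COL12A1 (2.975 CPM per kilobase) were under 7.54, the 95th percentile of genes near 0 in poly(A) RNA. COL5A1 (12.8), LAMB3 (9.98) and COL18A1 (9.945) were above it.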

How the results depend on the processing

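In the 3 group comparisons the matrix genes called kept their direction in the alternatives run, except COL13A1 (0.10), COL16A1 (0.06) and AGRN (0.30) in chromatin with the GC correction, which also turned LAMB2 from −0.33, not called, to a called 0.56. In the siPADI2 poly(A) comparison total counts as library sizes gave 20 matrix genes higher, where 7398 of all 18720 genes tested were called higher. In R1810A a replicate block gave 23 matrix genes lower in place of 14. Of the calls over all genes, 47.5% were higher with that block, against 48.3% without it. In chromatin DESeq2 gave 791 genes higher and 3201 lower and 1 matrix gene higher, no filter on low counts 1 matrix gene higher, the GC correction 2586 and 2840 genes and 2 and 10 matrix genes, and the joint fit 2085 genes and 0 matrix genes higher. With 1 library left out, which assumes that the lone library varies like the others, chromatin gave 1168 to 2350 genes higher, 3678 to 5641 lower, and 0 to 4 matrix genes higher; the lowest counts came without siCtrl replicate 5. For the R1810A minus siPADI2 difference total counts gave 1822 genes higher and 3870 lower, and a replicate block 3684 lower. For the chromatin minus poly(A) difference total counts gave 1666 genes higher, the GC correction 2732 genes and 8 matrix genes higher, and leaving out 1 library 420 to 2266 genes higher, 1783 to 6176 lower, 3 to 7 matrix genes higher and 10 to 23 lower. The cause was not tested. Leaving out 1 library lost the call of 5 of 23 matrix genes after siPADI2 (COL4A1, COL18A1, LAMA5, SPOCK1 and GPC4; SPARC was not tested without siCtrl replicate 2), of 7 of 25 in R1810A (BGN, COL12A1, LAMB3, HSPG2, FBLN1, FBN1 and SPOCK1) and of 10 of 26 in chromatin (DCN, BGN, SULF1, SULF2, COL4A1, COL4A5, COL12A1, COL13A1, AGRN and TNC). The labels do not say that equal replicate numbers mark a pairing; deviations of same-numbered libraries correlated over genes at 0.439 for WT and R1810A and 0.100 for the siRNA poly(A) groups. No paired analysis was possible in chromatin because its groups share fewer than 2 replicate numbers. Total counts of 2.72 to 2.80 in units of 1e6 limit the siPADI2 chromatin values.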
